A study of Capra hircus with 25 samples.

Results

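MicroRNAs (miRNAs) were compared in liver of Laiwu black goat kids (Capra hircus, domestic goat) between 8 weeks and 12 weeks of age, with 5 libraries at each age. The labels give both groups as liver of kids of this breed and tell them apart by age alone; no treatment, sex, diet or weaning state is given. The comparison covers the 370 of 463 table entries that reached 1 RPM (a read count scaled to a total that is the same for all libraries) or more in at least 5 of these 10 libraries. Of these, 353 carry goat names, printed here without a prefix, and 17 carry sheep names (prefix oar-). The study profiled 25 libraries from 5 ages, the other ages being 1 day, 2 weeks and 4 weeks, and all 25 entered the fit. The 5 entries just inside the limit had means of 1.06 to 1.45 RPM at 8 weeks and 0.680 to 1.07 RPM at 12 weeks. The 6 entries just outside it, which reached 1 RPM in too few of the libraries by 1, had means of 0.768 to 3.75 and 0.338 to 1.12 RPM. The labels do not say whether the libraries of 1 age are separate kids; p-values then reflect only differences among these libraries, and part of those may be technical.

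A miRNA is a short RNA that guides the Argonaute protein to messenger RNAs, which are then less translated and less stable. It is cut from a hairpin precursor, and the strand from the left side of the hairpin is named 5p and that from the right side 3p. Several hairpins often lie side by side and are made from 1 long transcript, so that their miRNAs are produced together. In liver, hepatocytes are dominated by miR-122, while other cells of the tissue (endothelium, blood cells, stellate and smooth muscle cells, bile duct cells) bring miRNAs of their own. In whole liver, fewer cells of a type and less of a miRNA per cell cannot be told apart.

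Between 422 and 436 entries were detected per library, and the low values of each library were whole multiples of 1 step of 0.0838 to 0.121 RPM, taken as the value of 1 read, which puts the libraries at an estimated 8402954 to 12097165 miRNA reads. At 3 reads, a count of 0 allows up to 0.251 to 0.362 RPM per library, and this covers counting error only. Hepatocyte markers fixed for the check of the tissue were high in all 10 libraries: miR-122, miR-192, miR-194 and miR-148a together held 223570.2 to 277918 RPM at 8 weeks and 258541 to 302434 RPM at 12 weeks. On the first principal component of the members (34.7% of the variance), 12-week replicate 5 stood apart at 8.74, the other 12-week libraries lay at 0.446 to 2.80, and 8-week replicate 1 lay among them at 0.838, while the other 8-week libraries lay at −5.52 to −2.14. Pearson correlations of log2 levels across miRNAs had medians of 0.992 between ages, 0.992 within 8 weeks and 0.993 within 12 weeks. Their lowest values were 0.983, 0.989 and 0.990. Since miRNAs differ widely in level, these correlations are high for any 2 of the libraries and can hardly show an age difference.

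The step from 8 to 12 weeks was small, and the miRNAs that passed the test were all lower at 12 weeks. In the fit across all 405 testable entries (limma on log2(RPM + 1), Benjamini-Hochberg adjusted p under 0.05), 5 fell and 0 rose, which is 1.23% and 0.0% of the entries tested, and all 5 belong to the 370. They were miR-542-3p, miR-424-5p and miR-424-3p, which come from 1 group of hairpins on chromosome X, miR-144-5p, a miRNA of red blood cell precursors, and miR-125a-3p, a rare strand of the miR-125a hairpin. At an unadjusted p under 0.05, 69 of the 370 were lower and 6 higher, against 17.3% and 1.73% of the 405. Of the 69, 37 belong to the DLK1-DIO3 cluster and 6 to the group on chromosome X, both described below. Among the other 294 members 26 were lower and 6 higher. There was no overlap between 8-week and 12-week libraries for 11 of the 370, all lower at 12 weeks (2.72% of the 405; 0.0% in the other direction). The 11 were miR-542-3p, miR-144-5p, miR-125a-3p, miR-499-5p, miR-374b-5p, miR-502b-5p and, from the imprinted DLK1-DIO3 cluster, miR-496-3p, miR-3959-5p, miR-376d, miR-412-5p and miR-369-3p. Those among them that no rule named were picked here because of this count.

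Most fitted changes were modest: 329 of the 370 lay within 1.5-fold, 37 were at least 1.5-fold lower and 4 at least 1.5-fold higher, and 3 were at least 2-fold lower against 0 at least 2-fold higher. The typical precision was ±0.40 on the log2 scale (median half-width of the 95% interval), and for 311 of the 370 the whole interval lay within 2-fold. A fold change here is on the log2(RPM + 1) scale, which understates changes of rare miRNAs. The largest fitted decrease and increase were chosen after their values were seen and did not pass: miR-9-5p, a miRNA of neural cells, had 79.1 ± 56.5 and 27.6 ± 5.40 RPM (log2 change −1.20 ± 0.45, adjusted p = 0.142), and miR-2332, whose role is not well known, had 3.22 ± 1.51 and 7.25 ± 3.50 RPM (0.87 ± 0.51, 0.337). The 8-week values of miR-9-5p ran from 28.3 to 160.4 RPM and overlapped those of 12 weeks, 20.97 to 34.2 RPM.

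The direction of small changes depended on how the libraries were scaled. RPM sets each library to a shared total, and 70.3% of the 370 then had a log2 change below 0 (69.9% of the 405), with a median over all tested of −0.12. After scaling by the median ratio over miRNAs the median was 0.03, a shift of 0.143, and 46.2% of the 370 were below 0 (47.2% of the 405); 89 of the 370 changed sign between both scalings. After TMM scaling the median was −0.01, a shift of 0.106. Under median-ratio scaling 1 miRNA fell (miR-424-5p) and 1 rose (miR-29a-3p), each 0.247% of the 405. Under TMM 4 fell (0.988%) and 1 rose (0.247%). Changes below are therefore given with the median-ratio value where it ends a call, and list medians with their median-ratio value. With only the 10 libraries of both ages in the fit 3 fell, of which 2 were among the 5 (miR-542-3p and miR-144-5p) and 1 was not (miR-496-3p), so that 3 of the 5 calls were lost.

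**Figure D1:**
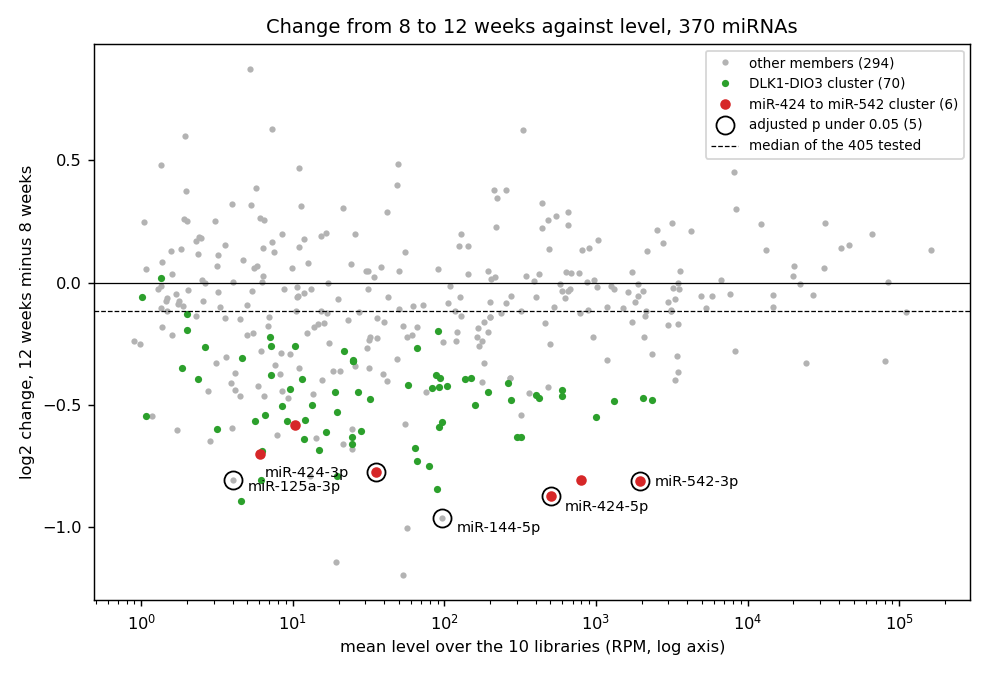
Log2 change at 12 weeks against 8 weeks (vertical axis) plotted against the mean level over the 10 libraries in RPM (log axis), 1 point for each of the 370 miRNAs. The 5 circled miRNAs had an adjusted p under 0.05; the 6 miRNAs of the miR-424 to miR-542 cluster lay between −0.87 and −0.58, and 69 of 70 DLK1-DIO3 miRNAs lay below 0.

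Of the 5 calls, 3 were in the X-linked group of the hairpins miR-424, miR-450 and miR-542. In mammals these hairpins lie together on chromosome X and are made from a shared transcript; miR-424-5p shares its seed, the stretch that pairs with targets, with the miR-15 and miR-16 family, which represses cell cycle genes such as cyclins, and miR-542-3p represses the apoptosis inhibitor survivin in human cells. In the goat reference ARS1.2 (RefSeq annotation, used for gene names and order only) MIR450, MIR542 and MIR424 are 3 consecutive miRNA genes on chromosome X. All 6 mature miRNAs of the group in the table were members. Their summed level was 3984, 3570.4, 4792, 3679 and 4933 RPM in 8-week replicates 1 to 5, and 3160.0, 1889.8, 2151, 2224 and 2598 RPM in 12-week replicates 1 to 5, so the groups did not overlap and the highest 12-week library was replicate 1.

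miR-542-3p, the most abundant of the group, measured 2359.8, 2237, 2542, 2386 and 2859 RPM at 8 weeks and 1584, 1136, 1183, 1476 and 1747 RPM at 12 weeks. Every 12-week library was below every 8-week library. The mean fell from 2477 ± 239.9 to 1425 ± 262 RPM (SD, n = 5 each), a 1.76-fold decrease (log2 change −0.81 ± 0.13, limma adjusted p = 0.000387), and the call held in 10 of 10 fits that left out 1 library. After median-ratio scaling its log2 change was −0.65 and its adjusted p = 0.0697, so the call was lost there.

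miR-424-5p had 644, 493, 799, 523 and 763 RPM at 8 weeks and 545, 293, 367, 269.8 and 308 RPM at 12 weeks. Only 12-week replicate 1 reached into the 8-week range, above 8-week replicates 2 and 4. The mean fell from 645 ± 137 to 357 ± 111 RPM (1.83-fold, log2 change −0.87 ± 0.17, limma adjusted p = 0.00351), it was called in 10 of 10 fits without 1 library, and it stayed called after median-ratio scaling (−0.71, adjusted p = 0.031). With only the 10 libraries in the fit it was not called (limma adjusted p = 0.058). The other strand of the same hairpin, miR-424-3p, had 38.9, 37.9, 63.6, 37.3 and 46.9 RPM and 38.8, 23.1, 21.6, 17.97 and 29.6 RPM, again with 12-week replicate 1 inside the 8-week range. It fell from 44.9 ± 11.2 to 26.2 ± 8.20 RPM (log2 change −0.77 ± 0.19, limma adjusted p = 0.0257), a call that held in 5 of 10 fits without 1 library (adjusted p 0.00376 to 0.0973) and was lost after median-ratio scaling (−0.61, adjusted p = 0.0697), with a pseudocount of 10 (−0.61, 0.0611) and with only the 10 libraries (0.107).

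miR-450 and the minor strand of miR-542 had changes of like size that did not pass. miR-450-5p measured 922, 783, 1363, 717 and 1240.2 RPM at 8 weeks and 971, 428, 569, 449.5 and 502 RPM at 12 weeks, where replicate 1 lay inside the 8-week range and the other 4 libraries below it. Its log2 change was −0.81 ± 0.23 (limma adjusted p = 0.0714). miR-450-3p went from 12.4 ± 1.86 to 8.23 ± 2.92 RPM (−0.58 ± 0.18, limma adjusted p = 0.0714) and miR-542-5p from 7.66 ± 1.72 to 4.55 ± 2.19 RPM (−0.70 ± 0.21, 0.0714). Of the 6, 3 passed, beside 1.23% of the 405, and 6 had an unadjusted p under 0.05, beside 17.3% of the 405; the median log2 change was −0.79, against −0.12 over all tested (after median-ratio scaling −0.63 against 0.03, and after TMM −0.67 against −0.01). Without 12-week replicate 1 all 6 were called, among 8 calls in all. In each of the other fits without 1 library, 2 or 3 of the 6 were called. Over the 10 fits without 1 library the median of the 6 ran from −0.91 to −0.66.

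The same miRNAs were also followed at the 3 earlier ages, which places the step in a longer course. miR-542-3p had 7039 ± 665 RPM at 1 day, 5612 ± 1109 RPM at 2 weeks and 3411 ± 371 RPM at 4 weeks. Under the deposited scaling, its log2 change was −0.34 from 1 day to 2 weeks (limma adjusted p = 0.1) and −0.71 from 2 to 4 weeks (0.00333). It was −0.46 from 4 to 8 weeks (limma adjusted p = 0.031) and −0.81 from 8 to 12 weeks. Neighbouring steps share libraries. Median-ratio values of the earlier steps are not given here, and their calls may depend on the scaling. Of the 405 entries, the same fit called 5.68%, 2.96% and 6.91% in the 3 earlier steps, in this order and in either direction. For miR-424-5p the means of the earlier ages were 1079 ± 109, 1017 ± 111 and 785 ± 131 RPM, and none of its earlier steps passed (−0.09, −0.38 and −0.29). Tested directly against the step from 2 to 4 weeks, with which it shares no library, the step from 8 to 12 weeks did not differ detectably for miR-542-3p (difference −0.11 ± 0.18, adjusted p = 0.899) or for miR-424-5p (−0.49 ± 0.24, adjusted p = 0.598). These steps span 2 and 4 weeks.

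**Figure D2:**
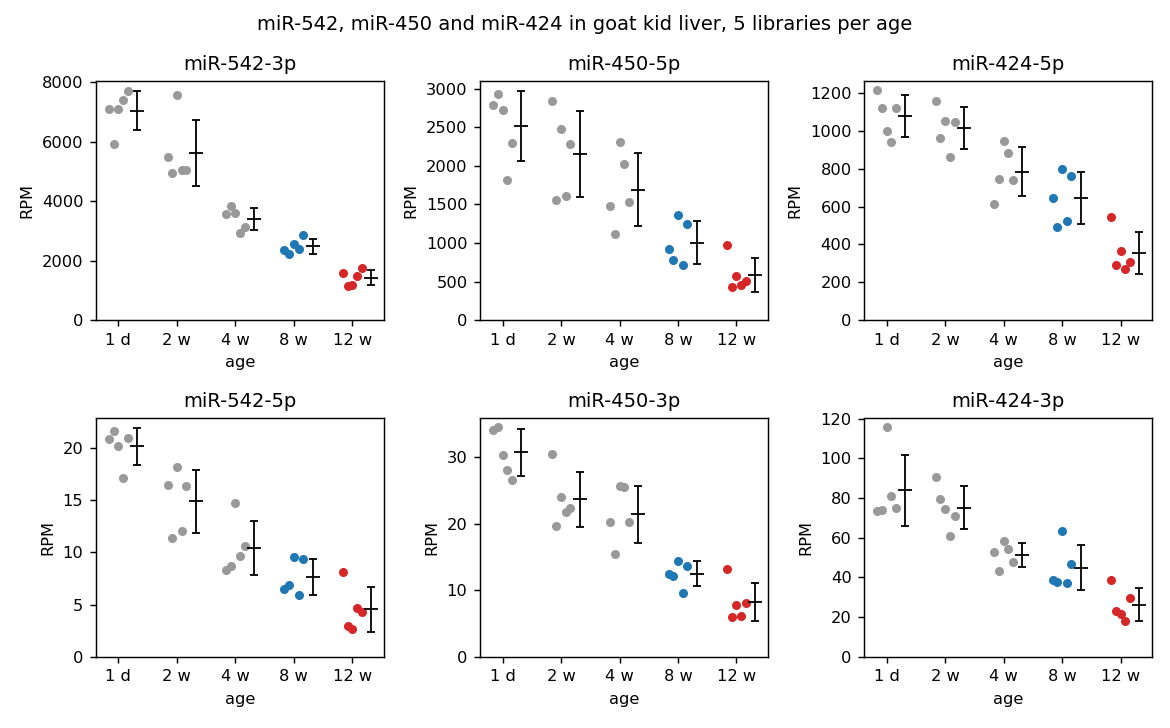
RPM of the 6 miRNAs of the miR-424 to miR-542 cluster at each age (linear axes from 0), 1 point per library, with the mean and SD of the 5 libraries beside them. Means were lower at each later age, and at 12 weeks replicate 1, the first red point, lay above the others for 5 of the 6 miRNAs and second to replicate 5 for miR-542-3p.

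In the DLK1-DIO3 cluster, the list with the most members, nearly all values lay lower at 12 weeks, and no member passed the test on its own when all 25 libraries were fitted. This imprinted region, transcribed from the copy inherited from the mother, encodes one of the largest groups of miRNAs in mammals, which is high in fetal tissues; in mouse, loss of its miR-379 to miR-410 portion disturbs the metabolic adaptation of newborns. Of its 89 table entries 70 were members, from 51 hairpins, of which 44 matched genes on chromosome 21 of ARS1.2 and made up 44 of 45 consecutive miRNA genes there. Of the 70, 0 were called (limma), beside 1.23% of the 405. An unadjusted p under 0.05 was reached by 37 of the 70, all of them lower. Of the 405, 17.3% were lower at that p, a share that includes these 37. A log2 change below 0 was found for 69 of the 70 (98.6%, beside 69.9% of the 405). After median-ratio scaling the shares below 0 were 97.1% and 47.2%. The median was −0.47, beside −0.12 over all tested, and −0.30 beside 0.03 after median-ratio scaling. Members made from 1 transcript are not independent of each other.

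Summed over the 70, the level was 10713, 18383, 11629.9, 13776 and 16669 RPM in 8-week replicates 1 to 5. It was 10253, 10896, 9558, 11535 and 7895 RPM in 12-week replicates 1 to 5. The ages overlapped: 8-week replicate 1 lay below 12-week replicates 2 and 4, and the lowest value was that of 12-week replicate 5, the library that stood apart on the first principal component. Without 8-week replicate 1, 14 miRNAs were called instead of 5, of which 8 were DLK1-DIO3 members, and without 8-week replicate 3, 11 were called, of which 6 were. In the other 8 fits without 1 library, 0 or 1 member of this cluster was called. Without 12-week replicate 5 there were 4 calls in all and 0 in this cluster. The cluster median ran from −0.54 to −0.34 over the 10 fits.

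The abundant member with the smallest p was miR-410-3p, which with miR-379 gives that portion its name. It measured 86.1, 147, 87.9, 140.2 and 115 RPM at 8 weeks and 67.1, 60.4, 68.8, 87.04 and 38.6 RPM at 12 weeks, with only 12-week replicate 4 above the lowest 8-week library. The log2 change was −0.84 ± 0.23 (95% interval −1.32 to −0.37, limma adjusted p = 0.0714). The most abundant member, miR-379-5p, had 2027, 3731, 2114, 2792 and 3111 RPM and 1877, 2098, 1660.5, 2252 and 1784 RPM, with 12-week replicates 2 and 4 inside the 8-week range. Its means were 2755 ± 711 and 1934 ± 239 RPM (log2 change −0.48 ± 0.14, limma adjusted p = 0.0714).

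miR-127-3p, which is transcribed opposite the imprinted gene RTL1 and pairs with its messenger RNA, had 857, 1401, 1131, 1129 and 1416 RPM and 902, 950.0, 719.7, 927 and 562 RPM. Its 8-week replicate 1 was the lowest of that age and lay inside the 12-week range (log2 change −0.55 ± 0.17, limma adjusted p = 0.0714). miR-411a-5p went from 2381 ± 653 to 1678 ± 202 RPM (−0.47 ± 0.15, 0.0714). miR-369-3p, whose libraries did not overlap, went from 1524 ± 308 to 1087 ± 179 RPM (−0.48 ± 0.17, limma adjusted p = 0.109). The lowest log2 change of the cluster was that of the rare miR-496-3p, −0.89 from means of 6.20 and 2.89 RPM (adjusted p = 0.0714, and 0.0297 with only the 10 libraries, where it was called), and the only value above 0 was that of oar-miR-668-3p, 0.02 from means of 1.34 and 1.34 RPM. The 5p strands of miR-376b, miR-376c and miR-376e had values within 1.05% of each other in every library and may hold the same reads.

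**Figure D3:**
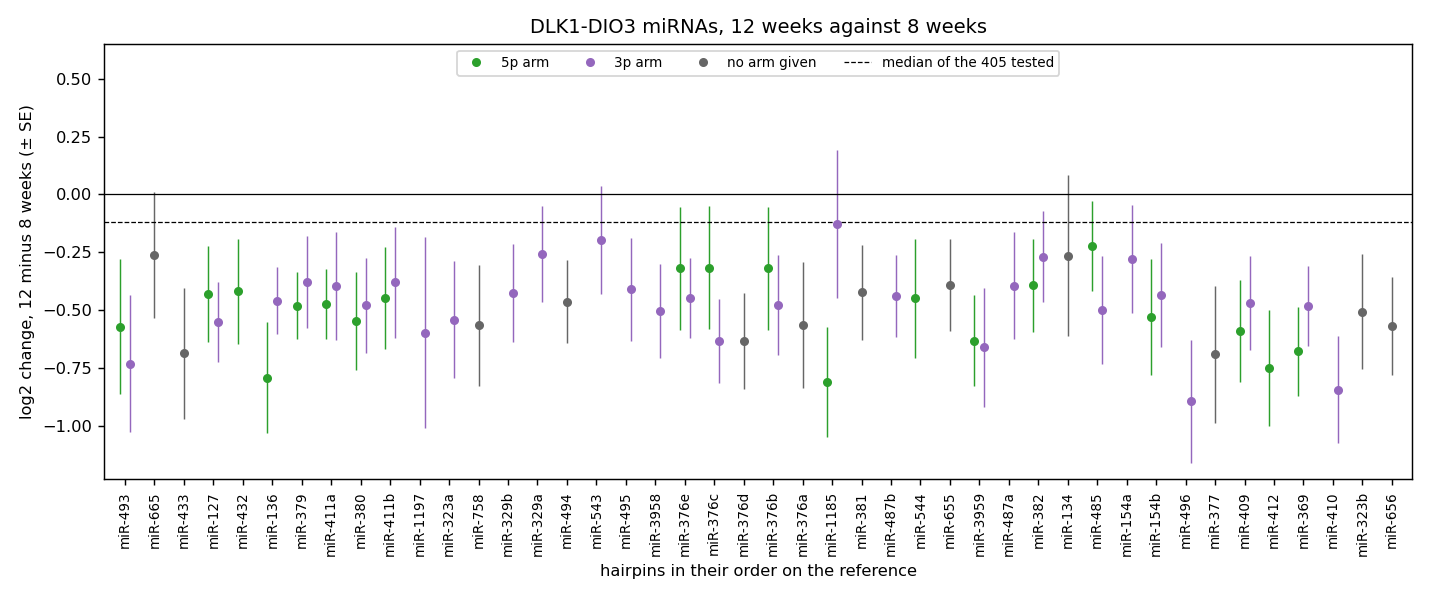
Log2 change at 12 weeks against 8 weeks with its standard error (vertical axis) for 61 DLK1-DIO3 miRNAs from 44 hairpins, placed in the order of their genes on the goat reference (horizontal axis, not to scale), with 5p strands, 3p strands and miRNAs without a named strand in separate colours. All 61 shown lay below 0, at both ends of the cluster and in its middle. Members with sheep names are not shown, among them oar-miR-668-3p, the only member of the 70 above 0.

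miR-144-5p, from a hairpin that shares its transcript with miR-451 and is switched on by GATA1 in red blood cell precursors of mouse and zebrafish, had the largest fitted change among the 5 calls. It measured 142, 136, 127, 121 and 106 RPM at 8 weeks and 72.4, 40.4, 86.1, 60.5 and 70.5 RPM at 12 weeks, without overlap. The mean fell from 126 ± 13.8 to 65.99 ± 16.97 RPM (1.95-fold, log2 change −0.96 ± 0.21, limma adjusted p = 0.0175). The call was lost without 12-week replicate 2 (adjusted p = 0.0761), the lowest library, and after median-ratio scaling (−0.80, adjusted p = 0.0697). It was also lost with only the 10 libraries and the replicate number as a block (adjusted p = 0.0666). Its partner strand miR-144-3p had 87.5, 88.9, 62.5, 77.9 and 57.8 RPM and 27.2, 23.7, 50.3, 59.9 and 32.04 RPM, of which 12-week replicate 4 lay above the lowest 8-week library (log2 change −1.005 ± 0.33, limma adjusted p = 0.0748).

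The abundant red blood cell miRNA miR-451-5p, from the neighbouring hairpin, overlapped fully between ages, with 3009, 3189, 3809, 3683 and 4581 RPM and 2873, 2668, 4235, 3415 and 3097 RPM. Its log2 change was −0.17 ± 0.26 (95% interval −0.70 to 0.37, limma adjusted p = 0.768). The erythroid markers had 3 members of 4 entries (miR-486 is not analysed here), with 1 lower and 0 higher by the test, and their sum was 3238 to 4745 RPM at 8 weeks and 2732 to 4371 RPM at 12 weeks. The part of red blood cell content in the change of miR-144-5p was not tested.

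miR-125a-3p was the rarest of the 5 calls and lay under the 10 RPM asked of named decreases, so it is named after its values were seen. It measured 6.28, 7.48, 5.44, 3.46 and 4.62 RPM at 8 weeks and 2.31, 2.68, 2.59, 3.34 and 2.19 RPM at 12 weeks, without overlap, though 8-week replicate 4 and 12-week replicate 4 nearly met. The mean went from 5.46 ± 1.54 to 2.62 ± 0.448 RPM (log2 change −0.81 ± 0.19, limma adjusted p = 0.0238), and the call held in 6 of 10 fits without 1 library (adjusted p 0.00679 to 0.0728) and was lost after median-ratio scaling (−0.70, 0.0697) and TMM scaling (−0.73, 0.0721), and with only the 10 libraries (0.0724). With a pseudocount of 10 it stayed called at a log2 change of −0.29. The main strand of the hairpin, miR-125a-5p, a relative of the worm lin-4 miRNA, had 1143, 1146, 1410.5, 1198 and 1197 RPM and 1222, 1189, 1251, 923 and 1117 RPM, which overlapped (log2 change −0.10 ± 0.15, adjusted p = 0.758).

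The 141 hairpins with both strands tested were compared by the ratio of 5p to 3p within a library, on which library scaling acts only through the pseudocount of 1 RPM added to each strand, which weighs most on rare strands such as miR-125a-3p. None passed (limma, 0 of 141, 0.0%), with 11 at an unadjusted p under 0.05 (7.8%). The smallest p were those of miR-125a, whose log2 ratio went from 7.59 ± 0.398 to 8.30 ± 0.324 (change 0.71 ± 0.18, adjusted p = 0.0562), miR-338 (−1.71 ± 0.321 to −0.92 ± 0.230, change 0.78 ± 0.21, 0.0562) and miR-335, a miRNA of the imprinted MEST gene (3.34 ± 0.354 to 2.65 ± 0.268, change −0.69 ± 0.20, 0.0769). With a pseudocount of 0.1 or 10 in place of 1, 1 ratio passed.

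Several other groups lay below the overall median without a call. The miR-183 cluster, best known from sensory cells of mouse, had 3 of 3 members lower at an unadjusted p under 0.05, beside 17.3% of the 405, and a median of −0.68 (−0.53 after median-ratio scaling). miR-183 measured 17.2, 10.1, 15.7, 22.6 and 18.4 RPM and 8.25, 9.22, 10.7, 5.64 and 12.6 RPM, with overlap (log2 change −0.79 ± 0.25, limma adjusted p = 0.0714), and miR-182 and miR-96 had −0.68 ± 0.28 and −0.62 ± 0.25 (adjusted p = 0.174 and 0.164). miR-126, made from an intron of the endothelial gene EGFL7 and the only endothelial marker used, had both strands at an unadjusted p under 0.05. miR-126-3p measured 24947, 30821, 24458, 29084 and 26422 RPM at 8 weeks and 19103, 23076, 19988, 20901 and 25158 RPM at 12 weeks. Of its 12-week libraries only replicate 5 exceeded any 8-week library (log2 change −0.33 ± 0.11, adjusted p = 0.0714; with median-ratio scaling −0.16 and 0.396). The other strand had −0.40 ± 0.13 (adjusted p = 0.0768).

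The relatives of miR-424-5p by seed, the miR-15 and miR-16 family, did not pass in any of 10 members, and their median was −0.16 (−0.000346 after median-ratio scaling, with 5 of 10 below 0, and −0.04 after TMM scaling). miR-15b-5p had the lowest p of its 4 most abundant members (554 ± 66.1 and 413 ± 64.9 RPM, log2 change −0.43 ± 0.17, limma adjusted p = 0.151), while the most abundant, miR-16a-5p, had 0.13 ± 0.11 (adjusted p = 0.533). The miR-188 to miR-660 group, which is X-linked in human and mouse, had a median of −0.19 over 9 members (−0.04 after median-ratio scaling, 0 called); its difference from the miR-424 to miR-542 group was not tested. The miR-130 and miR-301 family (7 members) and the miR-34 family (4 members) had medians of −0.33 and −0.39 (−0.21 and −0.25 after median-ratio scaling), with 0 called in either.

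No miRNA rose by the test under the deposited scaling. Among members with at least 10 RPM, the smallest p for a higher level was that of miR-29a-3p, which represses collagen and other matrix messenger RNAs. It measured 7997, 6676, 7023, 7156 and 8882 RPM at 8 weeks and 9107, 9999, 10146, 8483 and 8619 RPM at 12 weeks, with 8-week replicate 5 above 12-week replicates 4 and 5. The means were 7547 ± 890.3 and 9271 ± 769.5 RPM (log2 change 0.30 ± 0.10, limma adjusted p = 0.0889). It passed after median-ratio scaling (0.47, adjusted p = 0.039) and after TMM scaling (0.42, 0.0442). In the same fit under the deposited scaling it rose in each of the 3 earlier steps (log2 changes 0.35, 0.44 and 0.34, adjusted p = 0.0425, 0.0139 and 0.0423), of which the last shares the 8-week libraries. The other 5 miR-29 members had log2 changes of −0.10 to 0.20 and none passed.

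miR-26a-5p, one of the most abundant liver miRNAs and hosted in genes of the CTDSP phosphatase family, had 60861, 54551, 64619.9, 65953 and 62615 RPM and 60432, 82209.9, 73278, 70146 and 69019.6 RPM. Only 12-week replicate 1 lay inside the 8-week range (log2 change 0.20 ± 0.08, limma adjusted p = 0.159). miR-92a-3p of the miR-17-92 group had means of 2901 ± 535 and 3391 ± 155 RPM (0.24 ± 0.11, 0.243), and miR-192-5p, a miRNA of hepatocytes and gut, 11294 ± 1078 and 13338 ± 1313 RPM (0.24 ± 0.12, 0.26). Each of them overlapped between ages.

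The striated muscle markers had a median of 0.53 over 6 members (0.68 after median-ratio scaling), and 0 were called. miR-133a-3p, a muscle miRNA made from the same transcript as miR-1, had 224, 180.3, 227, 264 and 427 RPM and 314, 376, 509, 407 and 369 RPM, where 8-week replicate 5 lay inside the 12-week range (log2 change 0.62 ± 0.31, limma adjusted p = 0.268). The much more abundant miR-1 had 6063, 4944, 3652, 8455 and 11987 RPM and 5852, 7055, 13037, 8347 and 11814 RPM and overlapped widely (0.45 ± 0.34, 0.484). miR-499-5p, from an intron of the slow myosin gene MYH7B, went the other way without overlap, with 38.2, 40.8, 21.4, 29.1 and 21.4 RPM and 17.9, 20.1, 18.6, 17.6 and 20.4 RPM (−0.60 ± 0.17, limma adjusted p = 0.0714). The part of muscle tissue in these libraries was not tested.

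**Figure D4:**
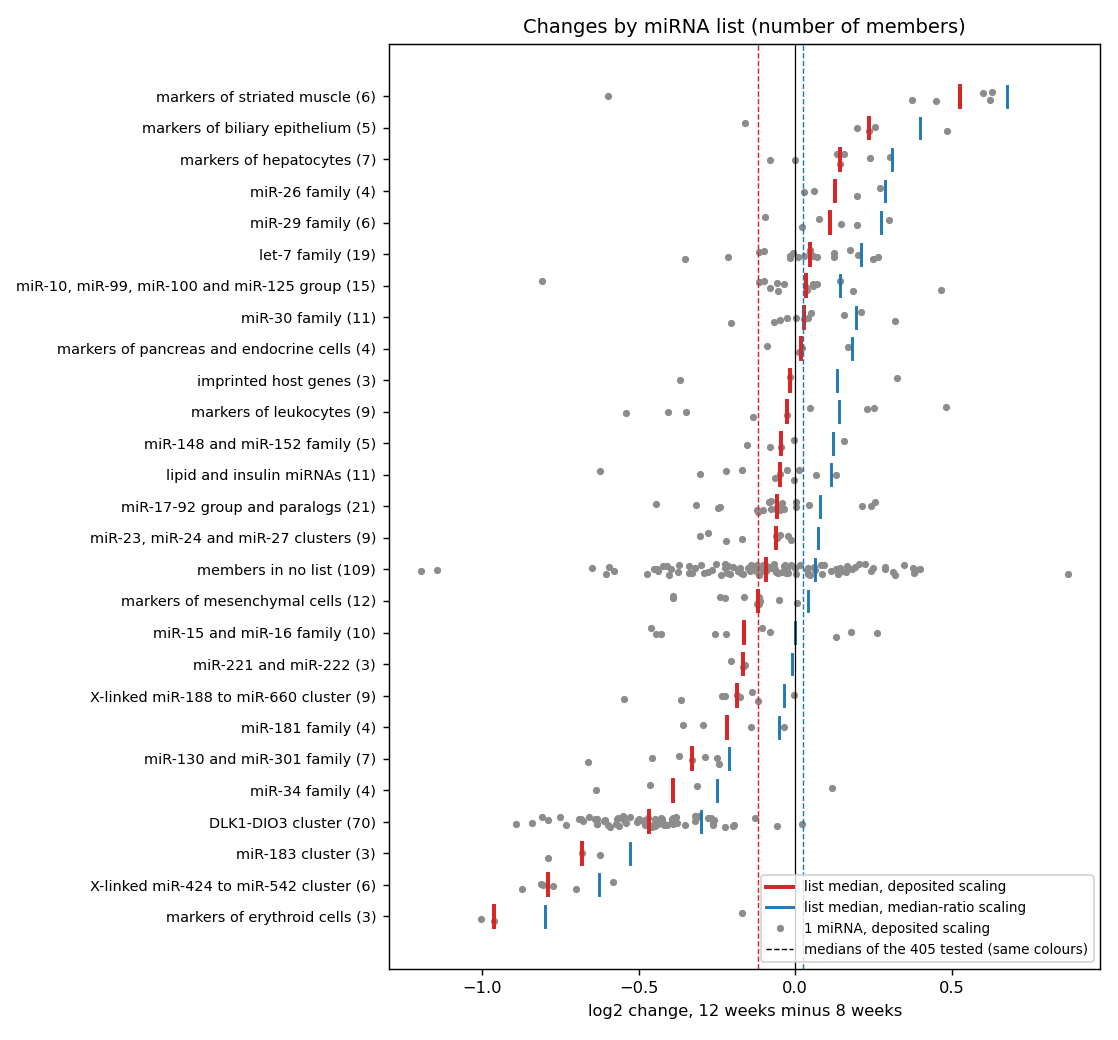
Log2 changes at 12 weeks against 8 weeks (horizontal axis) for each miRNA list and marker list with at least 3 members; grey points are miRNAs, red bars the list medians as deposited, blue bars the medians after median-ratio scaling, dashed lines the medians of all 405 tested. The miR-424 to miR-542 cluster (−0.79), the miR-183 cluster (−0.68) and the DLK1-DIO3 cluster (−0.47) had the lowest medians after the erythroid markers (−0.96). The 3 erythroid members are both strands of miR-144 and the more abundant miR-451-5p, which had −0.17. Striated muscle had the highest median (0.53).

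None of the most abundant liver miRNAs passed the test. miR-122, which supports cholesterol and lipid metabolism in hepatocytes, measured 152953, 136771, 182702, 156478 and 138324 RPM at 8 weeks and 197504, 181993, 169794, 157035 and 136789 RPM at 12 weeks, with wide overlap. It held 15.1% and 16.6% of all reads at 8 and 12 weeks (log2 change 0.13 ± 0.12, 95% interval −0.11 to 0.37, limma adjusted p = 0.545). miR-143-3p, of smooth muscle and other mesenchymal cells, was next with 115316 ± 7722 and 106486 ± 12866 RPM (−0.12 ± 0.19, adjusted p = 0.769). miR-21-5p, a widely expressed miRNA known from regenerating rodent liver, had 75121, 112557, 72672, 67609 and 123808 RPM and 68619, 73948, 61344, 90302 and 60030.0 RPM, with 8-week replicates 2 and 5 above all others (−0.32 ± 0.16, limma adjusted p = 0.268).

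Of the 10 most abundant members, 0 were called, and their log2 changes ran from −0.32 (miR-21-5p) to 0.24 (miR-101-3p). let-7f-5p had 31452 ± 2116 and 32694 ± 543 RPM (0.06 ± 0.08, limma adjusted p = 0.743) and miR-30a-5p 83989 ± 11601 and 84883 ± 16894 RPM (0.00 ± 0.14, 0.996). Together the 10 held 66.7% ± 0.618 of the reads at 8 weeks and 67.9% ± 0.750 at 12 weeks (SD, n = 5 each), 1.19 points more (p = 0.0159 by a two-sided exact permutation test over 252 arrangements, whose smallest p is 0.00794). Libraries ran from 65.7% to 67.5% and from 66.9% to 69.0% and overlapped. For the 5 most abundant the difference was −0.297 points (exact permutation p = 0.722), and for the 20 most abundant 0.953 points (exact permutation p = 0.0159).

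**Figure D5:**
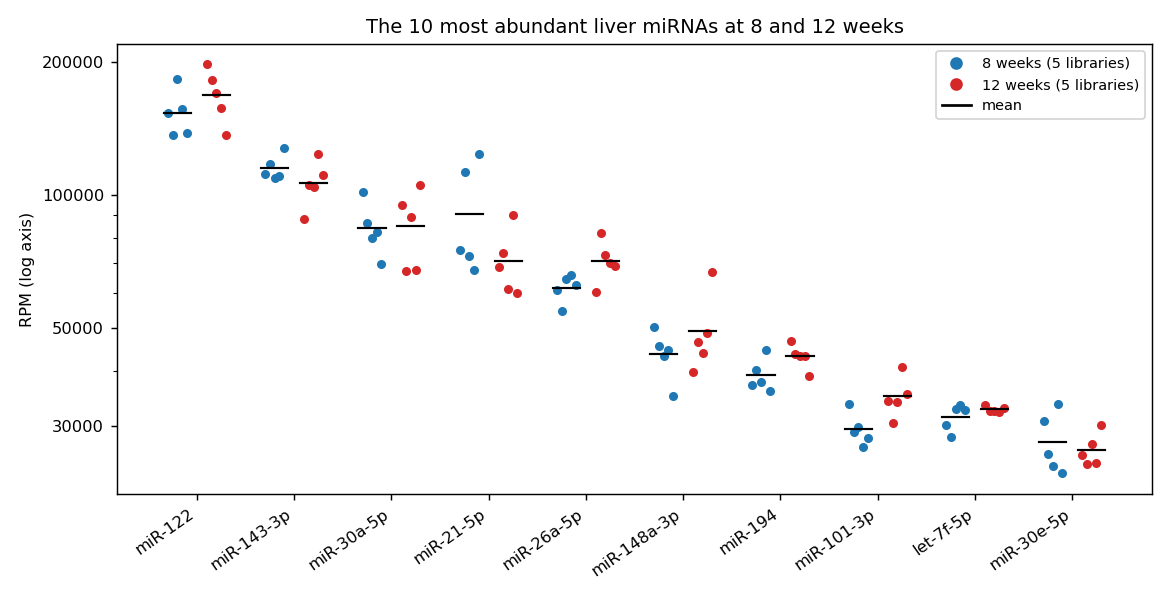
RPM (log axis) of the 10 most abundant miRNAs in each of the 5 libraries at 8 weeks (blue) and at 12 weeks (red), with the mean as a bar. The ages overlap for each of the 10 miRNAs, and miR-122 had the highest mean at both ages.

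The let-7, miR-30, miR-17-92, and miR-148 and miR-152 families had medians close to 0 under the deposited scaling, and none of their members passed. The 19 members of the let-7 family, which represses growth genes such as HMGA2 and LIN28, had a median log2 change of 0.05 (0.21 after median-ratio scaling). The 11 miR-30 members had 0.03 (0.19 after median-ratio scaling), the 21 of the miR-17-92 group with its paralogs −0.06 (0.08 after median-ratio scaling), and the 5 of the miR-148 and miR-152 family −0.04 (0.12 after median-ratio scaling). The lipid and insulin list, which holds miR-33, miR-103, miR-107, miR-378, miR-27, miR-96 and miR-185 by name, had −0.05 (0.12 after median-ratio scaling) over 11 members; its most abundant, miR-27b-3p, had 14986 ± 1420.1 and 14471 ± 1196 RPM. The medians of the hepatocyte, mesenchymal, leukocyte, biliary, and pancreas and endocrine markers were 0.14, −0.12, −0.03, 0.23 and 0.02, again with 0 called. After median-ratio scaling they were 0.31, 0.04, 0.14, 0.40 and 0.18. The medians of the miR-26, miR-29, miR-181, miR-221 and miR-222, and miR-23, miR-24 and miR-27 lists were 0.13, 0.11, −0.22, −0.17 and −0.06, and after median-ratio scaling 0.29, 0.28, −0.05, −0.01 and 0.07. The group of miR-10, miR-99, miR-100 and miR-125 had 0.04 (0.14 after median-ratio scaling) with 1 of 15 lower (miR-125a-3p), and the 3 members of the imprinted host gene list (miR-335 and miR-483) had −0.02 (0.13 after median-ratio scaling). The medians of the miR-17-92 group, the miR-148 and miR-152 family, the lipid and insulin list, the mesenchymal and leukocyte markers, the miR-23, miR-24 and miR-27 list and the imprinted host gene list thus lay below 0 as deposited and above 0 after median-ratio scaling.

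A last comparison asked whether miRNAs changed differently from 8 to 12 weeks than from 2 to 4 weeks, steps that share no library. Of the 405, 1 differed by the test (0.247%), with 31 at an unadjusted p under 0.05 (7.65%). It was miR-204-5p, hosted in the TRPM3 gene. Its means were 2388 ± 325 RPM at 2 weeks, 3526 ± 460.0 RPM at 4 weeks, 3167 ± 339 RPM at 8 weeks and 2817 ± 408 RPM at 12 weeks. It rose from 2 to 4 weeks (log2 change 0.56, adjusted p = 0.00595), and from 8 to 12 weeks its libraries of 3333, 2724, 2983, 3618 and 3175 RPM and 3118, 2453, 3347, 2742 and 2424 RPM overlapped (−0.17 ± 0.12, adjusted p = 0.398); the difference between the steps was −0.74 ± 0.16 (limma adjusted p = 0.0481). The call was lost after median-ratio and TMM scaling and in 14 of 20 fits without 1 library. The median-ratio divisors of 4-week replicates 1 and 2, 0.910 and 0.822, stood apart from the 1.11 to 1.18 of the other 4-week libraries. Without both, 15 of the 370 differed, each with the lower change in the later step. The share over all 405 was not counted for that fit. The divisors of the 2-week libraries were 0.994 to 1.09, below those of the 4-week libraries that remained. The part of library scaling in the shared direction of the 15 was not tested. Among the 15 were both strands of miR-126, both of miR-204, miR-144-5p and 6 of the 70 DLK1-DIO3 members. That fit was run under the deposited scaling only.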

How the data were processed

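miRNAs were profiled in liver of Laiwu black goat kids at 5 ages, with 5 libraries per age. Per the labels' protocols, RNA came from frozen liver by Trizol, and libraries were built with a TruSeq stranded total RNA kit from 5 ug; those protocols do not say how short RNAs were selected. The submitters' processing notes name Bowtie 1.1.1; not given in the sources used here are the genome build, the annotation and the treatment of reads matching several miRNAs. Therefore near-identical entries (miR-199a, miR-199b and miR-199c; the miR-376 5p strands) may share reads. The deposited table holds 463 entries in RPM, made by the authors; no header names the unit, which was inferred from the values. Library sums were 1012526 to 1015238 RPM in these 10 libraries, and their depth, estimated from the step between low values, was 8402954 to 12097165 reads.

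From these values, log2(RPM + 1) was fitted with limma 3.58.1 (variance trend, 1 mean per age, 25 libraries) for the 405 entries that reached 1 RPM in 5 or more libraries. Members are the 370 entries at 1 RPM or more in at least 5 of the 10 libraries of 8 and 12 weeks. Calls used a Benjamini-Hochberg adjusted p under 0.05 over all 405. Strand ratios used (5p + 1)/(3p + 1) for 141 hairpins. An exact permutation test compared the share of the top 10 miRNAs. The members, the 27 lists and the rule for named miRNAs were chosen with earlier results of these data known. The rule took called changes whose higher group averaged 10 RPM or more (up to 12 per direction, filled to 5 with uncalled ones of smallest p), the 10 most abundant members, up to 4 of each list, the 3 strand ratios of smallest p, and the step differences of smallest p. Same-numbered libraries of both ages did not deviate together (correlations −0.216 to 0.192), so numbers were not taken as pairs. Alternatives were median-ratio and TMM scaling, other filters and pseudocounts (0.1, 10), fewer libraries and the replicate block. The limma fits of levels and of strand ratios were also run on simulated data, with results not given here. Software was R 4.3.3 and Python 3.11.15 (numpy 2.4.6, pandas 2.3.3, scipy 1.17.1, matplotlib 3.10.9). Gene order came from the RefSeq annotation of ARS1.2, in which 352 of the 370 matched a miRNA gene by name.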

Additional observations from a re-analysis of the deposited data

Results flagged for a closer look

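For named miRNAs, each group of 5 libraries was searched for a library far from the other 4, and 16 of 214 groups held one. The cut-off is nominally passed by about 1 in 20 groups of normally distributed values. RPM values need not be distributed so, and the groups are not independent. The count was therefore not tested against chance. At 8 weeks, replicate 3 was the low library for miR-29c-3p (87.9 RPM) and miR-126-5p (3389 RPM) and the high one for miR-362-5p (202.8 RPM) and miR-125a-5p (1410.5 RPM). At 12 weeks, replicate 1 was high for miR-450-5p (970.9 RPM), which was called without that library, and for miR-483 (19.7 RPM), and replicate 2 was high for miR-150 (385 RPM). Replicate 4 of 12 weeks was low for miR-181b-5p (159 RPM), miR-96 (3.97 RPM), and the 3p strands of miR-199a, miR-199b and miR-199c (2383, 2376 and 2376 RPM), which are near copies and count as 1 observation. Replicate 5 of 12 weeks, the library farthest out on the first principal component, was low for miR-369-3p (775 RPM) and high for miR-146a (3255 RPM), a leukocyte marker, and for miR-217-5p (5.76 RPM) and miR-216b (4.49 RPM), pancreas markers.

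The change of miR-204-5p from 8 to 12 weeks differed from its change from 2 to 4 weeks by −0.74 on the log2 scale, the 1 call of that test.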

How the results depend on the processing

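The 5 calls became 2 under median-ratio scaling (1 higher), 3 with only the 10 libraries of both ages (miR-542-3p, miR-144-5p and, new, miR-496-3p), 0 with a log2 change of at least 1 asked as well, and 2 to 14 without 1 library; 2 of the 5, miR-542-3p and miR-424-5p, were called in each of those 10 fits. With the replicate number as a block there were 6 calls, the log2 change of miR-450-5p passing too (adjusted p = 0.0265), and with the block and only the 10 libraries, chosen after seeing the data, 1 (miR-542-3p). Of the 5 8-week libraries, 1 correlated best with its own number. Counted over the named miRNAs, the 5 calls became 2, 2 and 1 under median-ratio scaling, the 10 libraries alone and the block with them, and 2 to 9 without 1 library. TMM, no filter, a stricter filter and other pseudocounts gave 4 or 5. Strand ratio calls went from 0 to 1 with a pseudocount of 0.1 or of 10, and to between 0 and 3 without 1 library. The step difference call was lost (0) under median-ratio and TMM scaling and a pseudocount of 0.1, and was 0 or 1 without 1 library. Without 4-week replicates 1 and 2, under the deposited scaling only, the count became 15 of the 370. The share of the most abundant miRNAs reversed for the top 5 (−0.297 points) and was 0.907 to 1.43 points without 1 library. Of 2130 alternatives for the 107 named miRNAs taken singly, 2093 kept their side of the threshold, 14 passed it and 23 lost a call. Only the 5 calls could lose a call, so all 23 losses are theirs. Most named miRNAs were never called, so the pooled count does not measure how stable the calls were. The causes were not tested. Planned count tests on recovered reads were not run, since only 86 to 104 low values per library back the step. Depth limits entries near 0.251 to 0.362 RPM, the level of 3 reads.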
